A study of Gallus gallus with 24 samples.

Results

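Endothelial cells line the blood and lymph vessels of the gut, and 8 genes that mark them or act in them were followed in the jejunum, a segment of the small intestine, of 24 chickens. The genes were taken by name: KDR, TIE1, TEK, ENG, CDH5, RAMP2, EGFL7 and VWF. They are 8 of the 15618 genes in the deposited table, all 8 were found under these symbols, and 0 fell below the filter on low values, which left 13279 genes for testing. HAS and LAS are chicken lines that were selected over generations by their antibody titre to sheep red blood cells (SRBC), upward in HAS and downward in LAS. HASI birds are HAS birds injected with SRBC and HASN birds are HAS birds without the injection. LASI birds are LAS birds injected with SRBC and LASN birds are LAS birds without it. Each of the 4 groups holds 6 birds with 1 RNA sequencing library each, and the label 5 days post injection stands on every sample, injected or not. The labels give neither the age nor the sex of the birds, nor a batch or a date. The design text counts 24 chickens, so each library is taken as 1 bird.

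The vessel wall is built by signals that reach the endothelium through surface receptors. Vascular endothelial growth factor (VEGF) acts through KDR and drives vessels to sprout, angiopoietins act through TEK with TIE1 as its partner and steady the vessel, and bone morphogenetic proteins of the circulation act through ENG and the receptor ACVRL1. CDH5 holds neighbouring cells together, RAMP2 makes the receptor for adrenomedullin, and EGFL7 and VWF are secreted. In the small intestine the capillaries of the villus carry absorbed nutrients away and let immune cells enter the mucosa. These roles are known chiefly from mouse and human.

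Values are in TPM, a transcript abundance scaled for transcript length and brought to the same total in each library. Tests were made on log2(TPM + 1) with limma over all 13279 genes, a gene was called at a Benjamini-Hochberg adjusted p below 0.05, and log2 fold changes on this scale understate those of low genes. Read counts are not used here, so sequencing depth is unknown and counting error cannot be stated. Because the tissue was sequenced in bulk, fewer endothelial cells and less RNA per endothelial cell cannot be told apart in any of the values.

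Libraries differed in 2 measures that stand beside the results, and what lies behind either was not tested. The first is the span slope, computed in each library by regressing log2(TPM + 1) on log2 of a gene's genomic span, which is lower where genes with long spans give less RNA relative to short ones. It averaged -0.15 ± 0.05 in HASI and -0.11 ± 0.13 in HASN (SD, n = 6 each; exact two-sided permutation p = 0.502), and -0.17 ± 0.07 in LASI against -0.04 ± 0.06 in LASN (exact permutation p = 0.00866, adjusted 0.0289 over 8 comparisons). HASN replicates 1 to 3 had slopes of -0.21, -0.27 and -0.23, and HASN replicates 4 to 6 had 0.0138, -0.02 and 0.0227. The second is the share of TPM from 13 mitochondrially encoded genes, 27.8% ± 6.86 in HASI against 17.5% ± 4.53 in HASN and 22.1% ± 4.05 in LASI against 15.0% ± 3.32 in LASN (exact permutation p = 0.00866 and p = 0.0108, adjusted 0.0289 each). Enterocyte markers summed to between 22407 and 56040 TPM in every library, so the tissue carries the marker genes of its label.

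All 8 genes were above 0 TPM in every library. Averaged over the 24 libraries, ENG had the highest level at 25.1 ± 6.35 TPM (SD over libraries) and RAMP2 followed at 23.6 ± 6.06 TPM. VWF averaged 14.4 ± 7.86 TPM, EGFL7 13.9 ± 3.70 TPM and CDH5 12.9 ± 6.54 TPM. Below them stood TIE1 at 8.21 ± 3.24 TPM and KDR at 7.45 ± 3.13 TPM, and TEK was lowest at 3.94 ± 2.23 TPM. ENG and RAMP2 lie within 1 SD of each other, as do VWF, EGFL7 and CDH5, and as do TIE1 and KDR. The genes share their libraries, so this spread does not measure the order inside each of these sets, which was not tested. The 8 genes together summed to 84.7 ± 13.0 TPM in HASI against 125 ± 34.4 TPM in HASN, and to 109 ± 13.8 TPM in LASI against 119 ± 31.5 TPM in LASN (n = 6 each). The sums of the groups overlapped in both lines.

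**Figure D1:**
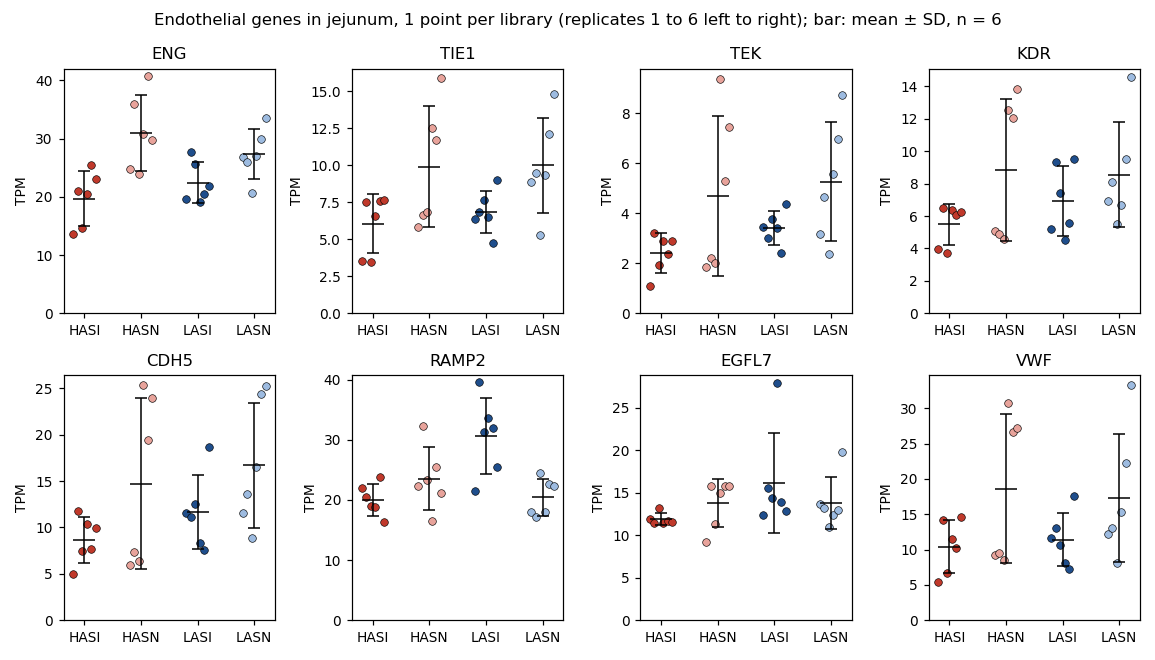
TPM of each endothelial gene in each of the 24 libraries, 1 panel per gene, with groups on the horizontal axis and the group mean and SD beside the points. ENG is lower in 5 of 6 HASI libraries than in every HASN library, RAMP2 is higher in 5 of 6 LASI libraries than in every LASN library, and in TEK, KDR, CDH5 and VWF the HASN libraries form a low and a high set, as they do in TIE1.

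KDR is the main signalling receptor for VEGF on endothelium and lies on chromosome 4, 65185439 to 65213106, plus strand (ENSGALG00000013907; coordinates here are those of the table, on galGal6). Its lowest, median and highest levels were 3.73, 6.15 and 6.48 TPM in HASI, against 4.59, 8.58 and 13.9 TPM in HASN. In the LAS line they were 4.50, 6.49 and 9.52 TPM in LASI, against 5.52, 7.50 and 14.6 TPM in LASN. The groups overlapped in both lines, and the high end of each pair was held by libraries of birds that were not injected. The log2 fold change was -0.50 (SE 0.27, adjusted p = 0.346) for HASI vs HASN and -0.25 (SE 0.27, adjusted p = 0.472) for LASI vs LASN in limma, so KDR did not pass the test in either line.

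TIE1 is a receptor tyrosine kinase of the endothelial surface that pairs with TEK, and it lies on chromosome 8, 20012281 to 20023311, plus strand (ENSGALG00000009957). It stood at 3.49, 7.03 and 7.67 TPM (lowest, median and highest) in HASI, against 5.81, 9.28 and 15.9 TPM in HASN. LASI libraries had 4.73, 6.67 and 9.03 TPM, against 5.31, 9.43 and 14.8 TPM in LASN. The groups overlapped in each line, although 3 HASN libraries lay above the highest HASI library and 4 LASN libraries above the highest LASI library. The log2 fold change was -0.60 (SE 0.25, adjusted p = 0.251) for HASI vs HASN and -0.45 (SE 0.25, adjusted p = 0.164) for LASI vs LASN.

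TEK, the receptor for the angiopoietins, lies on the sex chromosome Z at 68766291 to 68802701, plus strand (ENSGALG00000001840). Its levels were 1.09, 2.63 and 3.22 TPM in HASI, against 1.86, 3.74 and 9.37 TPM in HASN, and 2.43, 3.43 and 4.38 TPM in LASI, against 2.37, 5.12 and 8.74 TPM in LASN, each as lowest, median and highest. HASN replicates 1 to 3 held 1.86, 2.19 and 1.99 TPM of TEK and replicates 4 to 6 held 9.37, 5.28 and 7.44 TPM, so the first 3 lay inside the HASI range and the other 3 above it. The log2 fold changes of TEK were -0.58 (SE 0.31, adjusted p = 0.334) for HASI vs HASN and -0.42 (SE 0.31, adjusted p = 0.282) for LASI vs LASN. Since cock and hen differ in their number of Z chromosomes, the mean level of chromosome W genes was tried as a covariate. That level, on the log2 scale, was at most 0.414 in some libraries and at least 2.16 in the others. The coefficient of TEK on it was 0.10 (SE 0.09, adjusted p = 0.583 in limma). With the span slope as a further covariate it was -0.01 (SE 0.05, adjusted p = 0.999 in limma).

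ENG (endoglin) is the co-receptor that presents circulating bone morphogenetic proteins to ACVRL1 on endothelium, and it lies on chromosome 17, 5255485 to 5264795, plus strand (ENSGALG00000033039). HASI replicates 1 to 6 held 13.6, 20.9, 14.7, 20.4, 25.5 and 23.0 TPM of ENG, against 24.7, 36.0, 23.9, 30.8, 40.7 and 29.8 TPM in HASN replicates 1 to 6. All but 1 of the HASI libraries lay below the lowest HASN library, and 4 HASN libraries lay above the highest HASI library. ENG fell in HASI by 0.64 on the log2 scale (SE 0.16, 95% interval -0.97 to -0.30, adjusted p = 0.0398 in limma), with means of 19.7 ± 4.67 TPM in HASI against 31.0 ± 6.48 TPM in HASN. In the LAS line ENG averaged 22.4 ± 3.52 TPM in LASI against 27.3 ± 4.29 TPM in LASN, and its log2 fold change of -0.27 (SE 0.16, adjusted p = 0.189) did not pass. The 2 lowest ENG libraries, HASI replicates 1 and 3, also had the highest mitochondrially encoded shares, 38.0% and 34.7%. Without these 2 libraries, left out after seeing the data, ENG stood at -0.43 for HASI vs HASN (limma adjusted p = 0.492) and was not called. Leaving out the lowest ENG values of the lower group must shrink the difference, so this fit cannot test the call. In it 0.346% of all tested genes were called lower, in place of 1.75%. The call of ENG was also lost after median-ratio rescaling (-0.37, adjusted p = 0.290) and in a fit of the HAS groups alone (adjusted p = 0.214). Leaving out 1 library at a time, the call of ENG was lost without HASI replicate 1, 2, 3 or 4 (adjusted p = 0.137, 0.0594, 0.135 and 0.0617), without HASN replicate 2, 4, 5 or 6 (0.0681, 0.0782, 0.0962 and 0.0738), and without LASI replicate 3 or 5 or LASN replicate 2 or 4 (0.0501 to 0.0519).

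CDH5, the cadherin of the junctions between endothelial cells, lies on chromosome 11, 11518646 to 11547898, minus strand (ENSGALG00000032349). It had 4.93, 8.82 and 11.8 TPM in HASI, against 5.92, 13.4 and 25.4 TPM in HASN, as lowest, median and highest. The LAS groups had 7.61, 11.3 and 18.7 TPM in LASI, against 8.88, 15.1 and 25.2 TPM in LASN. The 3 HASN libraries of replicates 4 to 6, at 25.4, 19.4 and 24.0 TPM of CDH5, exceeded every HASI library, and replicates 1 to 3 at 5.92, 7.33 and 6.43 TPM did not. Its log2 fold changes of -0.51 (SE 0.34, adjusted p = 0.400) for HASI vs HASN and -0.45 (SE 0.34, adjusted p = 0.301) for LASI vs LASN did not pass.

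RAMP2 is a short membrane protein that pairs with the receptor CALCRL to bind adrenomedullin, a peptide that seals and widens vessels, and it lies on chromosome 27, 7849653 to 7851555, plus strand (ENSGALG00000024449). In the LAS line it had 21.5, 31.6 and 39.5 TPM in LASI, against 17.2, 20.2 and 24.5 TPM in LASN, as lowest, median and highest. In the HAS line it had 16.2, 19.8 and 23.8 TPM in HASI, against 16.5, 22.8 and 32.2 TPM in HASN. Of the LASI libraries 5 lay above every LASN library, while the HAS groups overlapped over most of their range. RAMP2 rose in LASI, with 30.6 ± 6.31 TPM in LASI against 20.4 ± 3.07 TPM in LASN (log2 fold change 0.54, SE 0.16, 95% interval 0.22 to 0.87, adjusted p = 0.0193). For HASI vs HASN its log2 fold change was -0.20 (SE 0.16, adjusted p = 0.443). The call in the LAS line was lost with the span slope as a covariate (log2 fold change 0.34, adjusted p = 0.170) and without LASI replicate 2 (adjusted p = 0.0527).

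EGFL7 is a small protein that endothelial cells secrete into the matrix around growing vessels, and it lies on chromosome 17, 8044471 to 8059104, minus strand (ENSGALG00000043499). HASI libraries were close together at 11.4, 11.6 and 13.2 TPM (lowest, median and highest), against 9.26, 15.3 and 15.8 TPM in HASN. LASI libraries had 12.4, 14.1 and 27.9 TPM, against 10.9, 13.1 and 19.8 TPM in LASN. Its HASI libraries fell inside the HASN range, and 1 library in each LAS group stood well above the rest. The log2 fold change of EGFL7 was -0.18 (SE 0.18, adjusted p = 0.529) for HASI vs HASN and 0.18 (SE 0.18, adjusted p = 0.437) for LASI vs LASN.

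VWF, the large clotting protein that endothelial cells store and release to catch platelets in mammals, lies on chromosome 1, 74541146 to 74683073, minus strand (ENSGALG00000017272), and with 141.9 kb has the longest genomic span of the 8 genes. It had 5.45, 10.8 and 14.6 TPM in HASI, against 8.46, 18.1 and 30.7 TPM in HASN, as lowest, median and highest. The LAS groups had 7.26, 11.1 and 17.7 TPM in LASI, against 8.06, 14.1 and 33.3 TPM in LASN. As with TEK and CDH5, the HASN libraries split, with 9.29, 9.57 and 8.46 TPM of VWF in replicates 1 to 3 and 30.7, 26.6 and 27.2 TPM in replicates 4 to 6. The log2 fold change of VWF was -0.66 (SE 0.35, adjusted p = 0.336 in limma) for HASI vs HASN, of the size of that of ENG with a larger error. For LASI vs LASN it was -0.49 (SE 0.35, adjusted p = 0.279 in limma). Birds have nucleated thrombocytes in place of platelets, and of the 3 thrombocyte markers GP9 and ITGA2B averaged 0.124 and 0.506 TPM over all libraries, near 0. ITGB3, the other one, which endothelial cells also carry, lay between 2.10 and 10.2 TPM with a median of 4.27 TPM.

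**Figure D2:**
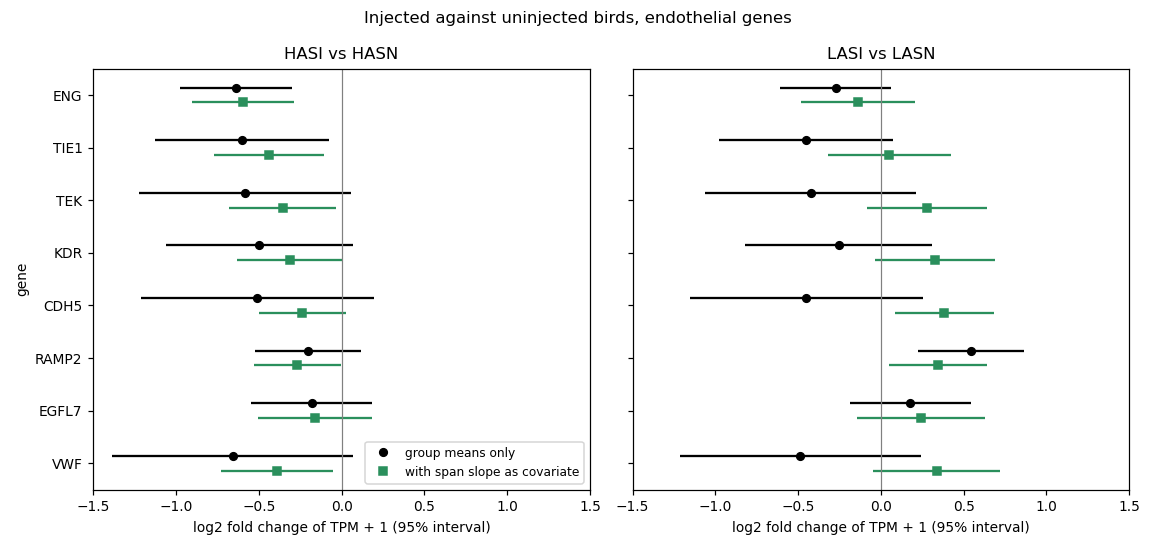
Log2 fold changes of the 8 endothelial genes on the log2(TPM + 1) scale with 95% intervals from limma, for HASI vs HASN and LASI vs LASN, without a covariate and with the span slope as one. All 8 genes lie below 0 in the HAS line in both fits, and in the LAS line 6 lie below 0 without the covariate and 1 (ENG at -0.14) with it.

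The injection comparison in each line asks which genes changed after the antigen. In the HAS line 1 of the 8 endothelial genes was called lower (ENG) and 0 were called higher, beside 1.75% of all tested genes called lower and 0.241% called higher. All 8 had negative log2 fold changes, from -0.18 (EGFL7) to -0.66 (VWF), with a median of -0.55 beside -0.26 over all tested genes. The genes are correlated over libraries, so the 8 signs are not separate observations. Without HASN replicates 1, 2 and 3, the libraries of low slope, 6 of 8 were called lower, with log2 fold changes of -0.77 for ENG, -1.07 for TIE1, -1.12 for KDR, -1.30 for TEK, -1.34 for CDH5 and -1.42 for VWF (adjusted p up to 0.00275). In that same fit 53.9% of all tested genes were called lower, so most of the table was lower along with these genes. In TIE1, TEK, KDR, CDH5 and VWF the libraries left out held the lowest HASN values. Leaving out the lowest values of the higher group must enlarge the difference, so this fit cannot test a fall of these genes. These 3 libraries stand apart by a slope computed from the same values, and no label other than the replicate number marks them. They stand apart in other measures too. Enterocyte markers summed to 56040, 49732 and 55618 TPM in HASN replicates 1 to 3, against 22407, 22693 and 26666 TPM in replicates 4 to 6. Their mitochondrially encoded shares were 20.7%, 23.4% and 19.7%, against 14.7%, 15.8% and 11.0%. In LASN replicates 1 to 3 also had the lower slopes, but no gap set them apart, as replicates 2 and 4 were almost equal. LASN replicates 1 to 3 had slopes of -0.096, -0.0432 and -0.119, and replicates 4 to 6 had -0.0418, 0.0127 and 0.0243. Their enterocyte sums were 45692, 42755 and 54871 TPM, against 41523, 33865 and 27882 TPM. In HASI and LASI the slopes of the same replicate numbers overlapped. What lies behind these differences by replicate number was not tested, so the value with all 6 HASN libraries is the one reported. In the LAS line 1 of 8 was called higher (RAMP2) and 0 were called lower, beside 2.18% of all tested genes called higher and 28.9% called lower. The median there was -0.35 beside -0.33 over all tested genes, so the endothelial genes had a median close to that of the table as a whole. The groups of injected and not injected birds overlapped in all 8 genes in both lines, beside 1.93% of tested genes without overlap in HAS and 4.84% in LAS.

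Averaged over both lines, ENG fell by 0.46 (SE 0.12, adjusted p = 0.00766) and TIE1 fell by 0.53 (SE 0.18, adjusted p = 0.0255) on the log2 scale in injected birds. They were 2 of 8 called lower, with 0 called higher, beside 38.8% of all tested genes called lower and 2.33% called higher. The share of endothelial genes called lower was thus not above that of the table. TEK at -0.50 (adjusted p = 0.0662), VWF at -0.57 (adjusted p = 0.0667), CDH5 at -0.48 (adjusted p = 0.109) and KDR at -0.38 (adjusted p = 0.116) had similar values and did not pass. RAMP2 stood at 0.17 (adjusted p = 0.205) and EGFL7 at 0.00 (SE 0.13, adjusted p = 0.993). TIE1 also lost its call without HASI replicate 1 (adjusted p = 0.0513) or HASN replicate 6 (adjusted p = 0.0515). TEK and VWF were called as well, which made 4 of 8, when HASN replicate 1, HASN replicate 2, HASN replicate 3 or LASN replicate 3 was left out (adjusted p at most 0.0405), fits in which 42.6% to 48.3% of all tested genes were called lower. When the span slope was a covariate, TIE1 lost its call (-0.19, adjusted p = 0.319) and ENG kept it (-0.37, adjusted p = 0.0319), beside 15.6% of all tested genes called lower. A median-ratio rescaling of the libraries puts the median of all genes at 0.01 in place of -0.29. After it ENG stood at -0.11 (adjusted p = 0.430) and RAMP2 was called higher at 0.51 (adjusted p = 0.0305), as 1 of 8 beside 13.5% of all tested genes. The same rescaling left RAMP2 (0.96, adjusted p = 0.0131) and EGFL7 (0.58, adjusted p = 0.0320) called higher for LASI vs LASN, as 2 of 8 beside 12.0% of all tested genes.

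Whether injection changed a gene by a different amount in the lines was tested by the interaction, the HAS injection effect minus the LAS one. By limma 0 of 8 endothelial genes and 0 of 13279 genes (0.00%) were called. At an unadjusted p below 0.05, 1 endothelial gene passed, RAMP2 at -0.75 (SE 0.22, 95% interval -1.20 to -0.29, unadjusted p = 0.00242, adjusted p = 0.750), as did 209 genes with a positive and 397 with a negative value in the whole table. The lower ENG in HASI and the higher RAMP2 in LASI are therefore not shown to be particular to a line. All 8 endothelial genes had a negative interaction, with a median of -0.21 beside 0.12 over all tested genes. Their levels are correlated over libraries, so the 8 signs are not separate observations.

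The line comparison asks which genes differ between the selected lines, without the antigen and with it. Between HASN and LASN 0 of 8 endothelial genes were called by limma, and 0 at an unadjusted p below 0.05, beside 1.17% of all tested genes called, with log2 fold changes from -0.31 (CDH5) to 0.18 (RAMP2). Between HASI and LASI 0 of 8 were called, beside 0.542% of all tested genes, and 1 passed an unadjusted p below 0.05. That gene was RAMP2, at 16.2, 19.8 and 23.8 TPM in HASI (lowest, median and highest) against 21.5, 31.6 and 39.5 TPM in LASI (log2 fold change -0.57, SE 0.16, unadjusted p = 0.00126, adjusted p = 0.128), where 5 LASI libraries lay above every HASI library. All 8 had negative values in that comparison, with a median of -0.32 beside -0.06 over all tested genes. These line and injection comparisons share their groups, so their values are not independent, and the 8 genes are correlated over libraries. Averaged over injection 0 of 8 genes were called, and 0 at an unadjusted p below 0.05, beside 2.60% of all tested genes, with values from -0.34 (CDH5) to -0.02 (ENG).

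The endothelial genes were related to the span slope of the libraries, unequally from gene to gene. Over the 24 libraries CDH5 had a Pearson r of 0.916 and a Spearman rho of 0.876 with the slope (permutation p = 1e-05 each, the smallest the permutations can give). VWF had an r of 0.870 and a rho of 0.837 (permutation p = 1e-05 each), TEK an r of 0.868 and a rho of 0.794 (permutation p = 1e-05 each), KDR an r of 0.814 and a rho of 0.814 (permutation p = 1e-05 and 2e-05), and TIE1 an r of 0.801 and a rho of 0.783 (permutation p = 1e-05 and 4e-05). ENG followed it less, with an r of 0.442 and a rho of 0.477 (permutation p = 0.03 and 0.0195), RAMP2 ran against it with an r of -0.530 and a rho of -0.525 (permutation p = 0.00819 and 0.00936), and EGFL7 had an r of 0.101 and a rho of 0.210 (permutation p = 0.656 and 0.323). Adjusted over the 8 relations, all p-values but those of EGFL7 were at most 0.0343. The permutations moved all 24 libraries without regard to group, so these p-values also hold differences between groups. With group means in the limma fit, the slope coefficient was not called for ENG (adjusted p = 0.144) or EGFL7 (adjusted p = 0.537). It was called for the other genes, with RAMP2 at adjusted p = 0.0140. Leaving out 2 libraries, those whose slope was farthest from the median, the r values were 0.911 for CDH5, 0.873 for VWF, 0.855 for TEK, 0.785 for KDR, 0.802 for TIE1, 0.582 for ENG, -0.501 for RAMP2 and 0.0401 for EGFL7. The slope and the levels come from the same tables of TPM and are not independent measures, and 71.8% of all tested genes had a called slope coefficient. As deviations from the group means, which removes the groups, the r values were 0.942 for CDH5, 0.897 for VWF, 0.888 for TEK, 0.842 for KDR, 0.792 for TIE1, 0.342 for ENG, -0.544 for RAMP2 and 0.155 for EGFL7. What lies behind the slope was not tested.

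**Figure D3:**
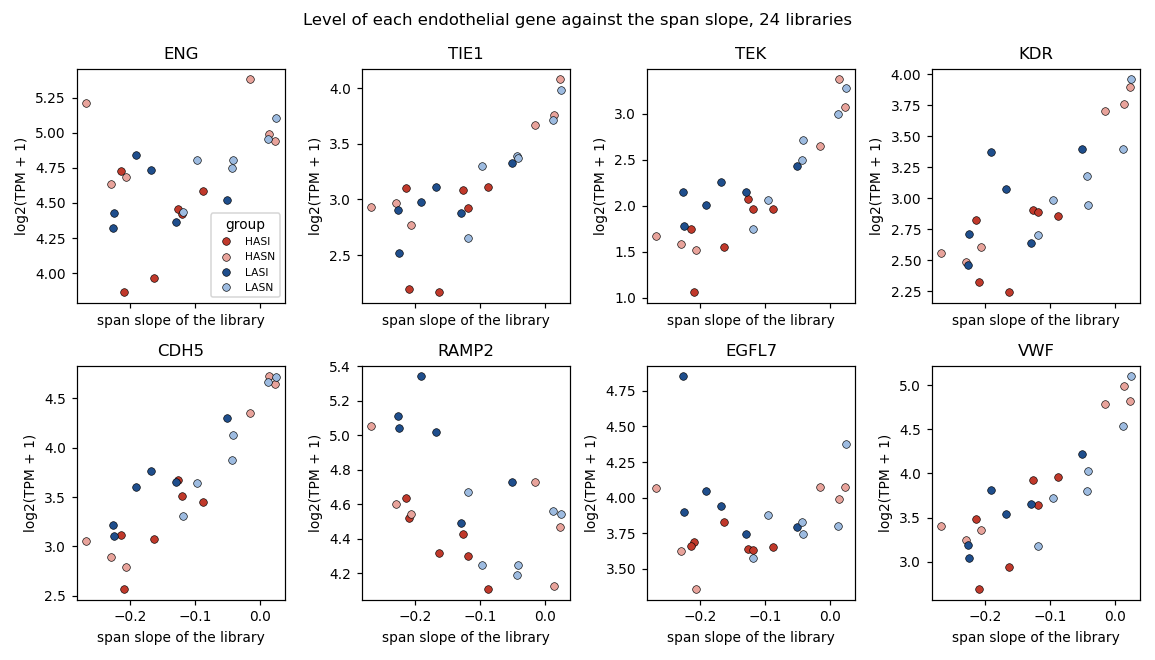
Level of each endothelial gene, as log2(TPM + 1), against the span slope of the library, with 24 libraries per panel marked by group. CDH5, VWF, TEK, KDR and TIE1 climb with the slope (r from 0.801 to 0.916), ENG climbs less (r = 0.442), EGFL7 is level (r = 0.101) and RAMP2 descends (r = -0.530).

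Over the whole table, median log2 fold changes after injection were lower in genes of longer genomic span. The tested genes were put into 4 span classes of nearly equal number. For LASI vs LASN the median log2 fold change was -0.03 over the class with the shortest spans, which holds RAMP2 (1.9 kb), and -0.26 over the next, which holds ENG (9.3 kb) and TIE1 (11.0 kb). It was -0.44 over the class with EGFL7 (14.6 kb), KDR (27.7 kb) and CDH5 (29.3 kb), and -0.64 over the class with the longest spans, which holds TEK (36.4 kb) and VWF (141.9 kb). The same medians for HASI vs HASN were -0.17, -0.22, -0.28 and -0.38. In the HAS line every endothelial gene but EGFL7 (-0.18) lay below the median of its class, with ENG at -0.64 and TIE1 at -0.60. In the LAS line ENG at -0.27 and CDH5 at -0.45 lay near the median of their class, and TIE1 at -0.45 lay below it. RAMP2 at 0.54, EGFL7 at 0.18, KDR at -0.25, TEK at -0.42 and VWF at -0.49 lay above theirs. Only RAMP2 and EGFL7 in the LAS line, and ENG and TIE1 in the HAS line, lay farther from the median of their class than their SE. This SE belongs to the fold change of the gene and does not measure that distance, which was not tested.

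The span slope of each library was also used as a covariate. The slope itself differed between LASI and LASN (exact permutation p = 0.00866) and not detectably between HASI and HASN (exact permutation p = 0.502). In the LAS line the covariate thus overlaps with the injection, and the fit cannot fully tell them apart. ENG was called lower in HASI than in HASN in this fit too (log2 fold change -0.59, SE 0.15, adjusted p = 0.0114). It was 1 of 8 with 0 called higher, beside 10.7% of all tested genes called lower and 0.956% called higher. The other values for HASI vs HASN were -0.44 for TIE1 (adjusted p = 0.0763), -0.39 for VWF (adjusted p = 0.121), -0.36 for TEK, -0.31 for KDR, -0.27 for RAMP2, -0.24 for CDH5 and -0.16 for EGFL7. For LASI vs LASN 0 of 8 were called in this fit, beside 5.89% of all tested genes, and 7 of 8 values were positive, from 0.05 (TIE1) to 0.38 (CDH5). So in the LAS line the values of TIE1, TEK, KDR, CDH5 and VWF, none of them called, changed sign between the fits. For HASI vs LASI RAMP2 was called lower in this fit (-0.55, SE 0.13, adjusted p = 0.0192), as 1 of 8 beside 1.70% of all tested genes, and CDH5 at -0.45 (adjusted p = 0.0584) did not pass. The interaction stayed at 0 called by limma in this fit, with 7 of 8 endothelial genes negative at an unadjusted p below 0.05 and all 8 negative. Over all 13279 tested genes 890 were negative and 215 positive at that p, and 8596 had a negative value. The endothelial median was -0.62 beside -0.08 over all tested genes. The 8 genes are correlated over libraries, also after the slope is removed, so they do not count as 8 separate observations. With 0 genes called, a difference between the lines is not shown in this fit either.

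The endothelial genes also varied together. Over the 24 libraries the 28 pairs among them had Pearson correlations from -0.26 to 0.968 with a median of 0.615. The 10 pairs among TIE1, TEK, KDR, CDH5 and VWF ran from 0.876 to 0.968, and RAMP2 had correlations of -0.26 to -0.09 with these same genes. When the group means and the span slope were removed, all 28 pairs were positive, from 0.217 to 0.843 with a median of 0.584, and ENG with VWF gave the highest. All points share their libraries and the scaling to a common total, so these values are a description.

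**Figure D4:**
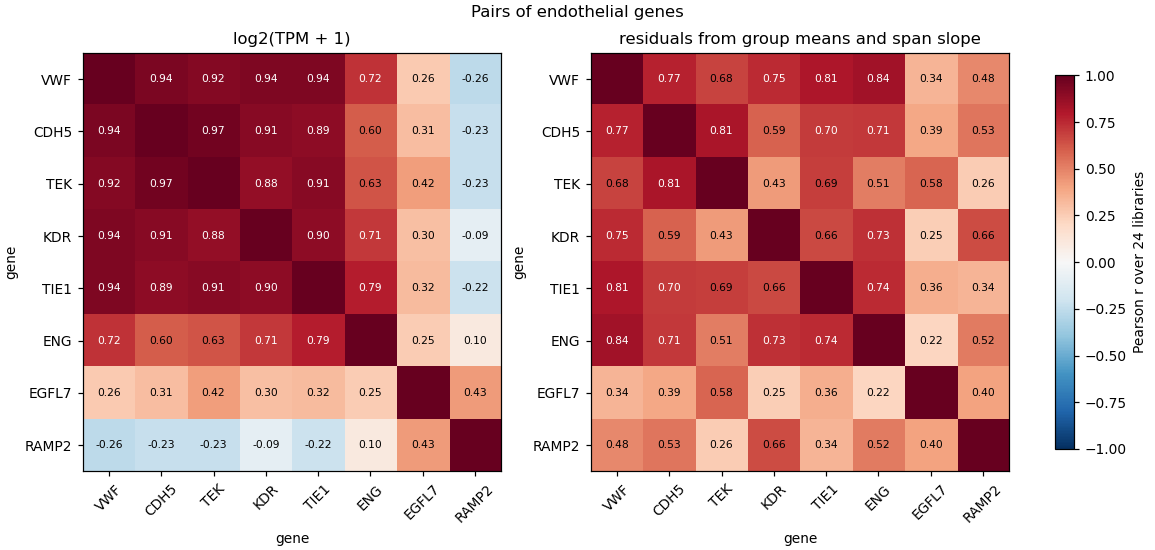
Pearson correlation of each pair of endothelial genes over 24 libraries, from log2(TPM + 1) in one panel and after removing group means and span slope in the other. In the first panel RAMP2 stands apart with values down to -0.26, and in the second all 28 pairs are positive.

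Among 10177 other named genes averaging 1 TPM or more, those whose level ran most closely with the mean of the 8 standardized genes over 24 libraries were MGLL (r = 0.944), FLT4 (0.931), ARHGAP24 (0.926), FARP1 (0.916), KIF5C (0.911), JAM2 (0.911), MMP2 (0.909) and MXRA8 (0.907). FLT4 is the VEGF receptor of lymphatic endothelium and JAM2 is an adhesion protein of endothelial junctions. The others are not in the vessel lists used here. The spans of all these genes, from 23.4 kb (MXRA8) to 198.2 kb (FARP1), exceed the median of 13.1 kb over tested genes. After group means and the span slope were removed, the closest were MGLL (0.866), MSN (0.842), PARD6G (0.838), CLIC2 (0.830), EML3 (0.815), FMNL3 (0.812), LMO2 (0.809) and FLT4 (0.808). MGLL, a lipase that splits monoglycerides, led both orders, and FLT4 was the other gene in both.

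Beyond the 8 genes, 83 others in lists of vessel genes were in the table and 81 of them were tested. For HASI vs HASN 0 were called higher and 1 lower, for LASI vs LASN 1 higher and 23 lower, and for the mean injection effect 2 higher and 36 lower. The share called lower was 1.23%, 28.4% and 44.4% in that order, beside 1.75%, 28.9% and 38.8% of all tested genes, so in each line it was near that of the table. Their median log2 fold changes were -0.41, -0.32 and -0.39, beside -0.26, -0.33 and -0.29 over all tested genes. Adding the span slope as a covariate made the counts 2 higher and 14 lower for HASI vs HASN, 5 higher and 2 lower for LASI vs LASN, and 5 higher and 10 lower for the mean. In that fit 0.956% of all tested genes were called higher and 10.7% lower for HASI vs HASN. The shares were 0.934% and 4.96% for LASI vs LASN, and 2.04% and 15.6% for the mean.

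**Figure D5:**
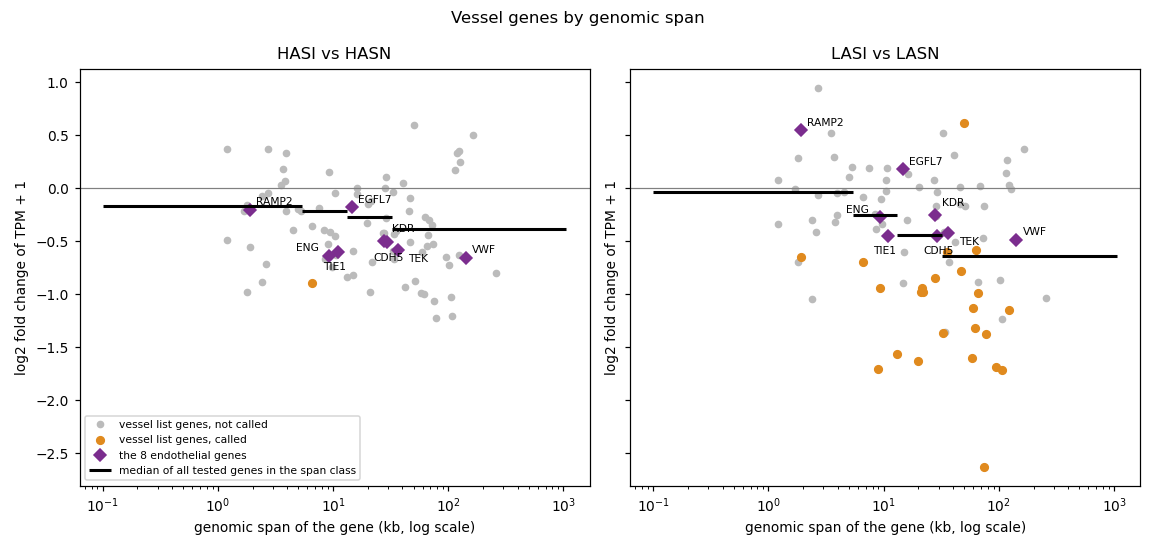
Log2 fold change of each vessel gene against its genomic span in kb on a log axis, with the endothelial genes labelled and black bars for the median of all tested genes in each span class, for HASI vs HASN and LASI vs LASN. In the LAS line the medians of all tested genes step down by span class, -0.03, -0.26, -0.44 and -0.64. RAMP2 at 0.54 (SE 0.16) and EGFL7 at 0.18 (SE 0.18) lie above the median of their class by more than their SE. ENG, TIE1, KDR, CDH5, TEK and VWF lie within their SE of it. The SE belongs to the fold change of the gene and does not measure its distance from the median. Whether the endothelial genes follow these steps was not tested.

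The partners of the receptors gave these values. In the VEGF list 0 of 8 tested genes were called by limma for HASI vs HASN, 1 being lower at an unadjusted p below 0.05. For LASI vs LASN 2 were called lower, beside 28.9% of all tested genes. VEGFA, the ligand of KDR, averaged 18.8 ± 8.11 TPM in LASI against 35.0 ± 5.98 TPM in LASN (log2 fold change -0.94, SE 0.28, adjusted p = 0.0220), and the co-receptor NRP2 had -1.38 (adjusted p = 0.0422). In the slope fit VEGFA stood at -0.27 (adjusted p = 0.290) and NRP2 at -0.15 (adjusted p = 0.774). For the mean injection effect 4 of the 8 were lower, beside 38.8% of all tested genes, and 1 of the 8 in the slope fit, beside 15.6%. The 4 included the receptor FLT1 at -0.79 (adjusted p = 0.0323) and the co-receptor NRP1 at -1.13 (adjusted p = 0.0283), calls that were lost in 14 and 11 of 36 alternatives (adjusted p up to 0.502 for FLT1 and 0.386 for NRP1).

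Of the angiopoietin and TIE list 1 of 6 genes was lower for HASI vs HASN, beside 1.75% of all tested genes. For LASI vs LASN 4 were lower, beside 28.9% of all tested genes. ANGPT4, a ligand of TEK, averaged 3.41 ± 1.22 TPM in HASI against 7.26 ± 2.69 TPM in HASN, and fell by 0.89 on the log2 scale (SE 0.23, adjusted p = 0.0433). It fell by 0.69 in the LAS line (adjusted p = 0.0302), with 6.53 ± 1.78 TPM in LASI against 11.1 ± 2.39 TPM in LASN. Averaged over both lines ANGPT4 fell by 0.79 (adjusted p = 0.00244), a call that was kept under each alternative tried, with adjusted p up to 0.0144. It was also lower in HAS than in LAS birds averaged over injection, by 0.69 on the log2 scale (adjusted p = 0.0204), a call lost in 2 of 36 alternatives (adjusted p up to 0.143). The calls of ANGPT4 within a line were lost in 18 of 37 alternatives for HASI vs HASN and in 10 of 37 for LASI vs LASN: without HASI replicates 1 and 3 the adjusted p for HASI vs HASN was 0.496, and in the slope fit that for LASI vs LASN was 0.432. PTPRB, a phosphatase that restrains TEK, had a log2 fold change of -1.60 for LASI vs LASN (limma adjusted p = 0.0227), and SVEP1, a matrix protein that binds TIE1, had -1.15 (adjusted p = 0.0274). FOXO1, a transcription factor held in check by TEK signalling, had -0.58 (adjusted p = 0.0376). In the slope fit PTPRB stood at -0.41, SVEP1 at -0.21 and FOXO1 at -0.09, and none was called. ANGPT1, the main activating ligand of TEK, rose by 0.44 in injected birds over both lines (adjusted p = 0.0372).

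Around ENG, 0 of 14 genes of the endoglin and BMP9 list were called by limma for HASI vs HASN, 5 being lower at an unadjusted p below 0.05, and 8 were lower for LASI vs LASN, with 1 (ID3) in the slope fit. In the LAS line 28.9% of all tested genes were called lower, and 4.96% in the slope fit. ACVRL1, the signalling receptor that ENG serves, averaged 15.1 ± 2.47 TPM in HASI against 19.5 ± 2.63 TPM in HASN (log2 fold change -0.35, adjusted p = 0.239), and 20.2 ± 3.04 TPM in LASI against 21.6 ± 4.37 TPM in LASN. ID3, a target gene of this pathway, averaged 88.2 ± 12.2 TPM in HASI against 135 ± 41.4 TPM in HASN, and 80.2 ± 13.8 TPM in LASI against 126 ± 21.7 TPM in LASN. ID3 fell by 0.65 in the LAS line (SE 0.18, adjusted p = 0.0176) and by 0.60 over both lines (adjusted p = 0.00277), and had -0.55 in the HAS line (adjusted p = 0.130). In the slope fit ID3 fell in both lines, by 0.66 in HASI (adjusted p = 0.000943) and by 0.99 in LASI (adjusted p = 0.00013), and after rescaling its log2 fold change over both lines was -0.24 (adjusted p = 0.376). ID1 and ID2, other targets of the pathway, were not called in these comparisons, with log2 fold changes over both lines of 0.22 (adjusted p = 0.409) for ID1 and -0.06 (adjusted p = 0.791) for ID2. BMPR2, the partner receptor, had -1.68 for LASI vs LASN (SE 0.47, adjusted p = 0.0180), and -0.54 (adjusted p = 0.137) in the slope fit. SMAD1, which carries the signal to the nucleus, had -0.78 (adjusted p = 0.0200), and the co-receptor TGFBR3 -1.72 (adjusted p = 0.0293). In the slope fit SMAD1 stood at -0.27 and TGFBR3 at -0.29, and neither was called. SMAD9, a close relative of SMAD1, fell over both lines by 0.98 (adjusted p = 0.00717), and by 0.45 in the slope fit (adjusted p = 0.0221).

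The 1 vessel gene called higher in the LAS line came from the adrenomedullin list. RAMP3, which like RAMP2 pairs with CALCRL, had 5.36, 8.29 and 11.1 TPM in LASI (lowest, median and highest), against 3.52, 4.73 and 6.63 TPM in LASN. Its values in the HAS line were 4.82, 6.20 and 6.79 TPM in HASI, against 2.45, 3.22 and 6.15 TPM in HASN. RAMP3 rose in LASI by 0.61 on the log2 scale (SE 0.21, adjusted p = 0.0333) and over both lines by 0.60 (SE 0.15, adjusted p = 0.00670). In the HAS line RAMP3 stood at 0.59 (SE 0.21, adjusted p = 0.172), and in the slope fit it rose in HASI by 0.67 (adjusted p = 0.0192) and in LASI by 0.85 (adjusted p = 0.0148). RAMP3 thus had positive values in both lines, whereas those of RAMP2 were of opposite sign. CALCRL, the receptor they share, averaged 1.93 ± 0.999 TPM in LASI against 4.63 ± 2.38 TPM in LASN (log2 fold change -0.89, adjusted p = 0.123), and 1.26 ± 0.621 TPM in HASI against 3.46 ± 3.40 TPM in HASN. The call of RAMP3 for LASI vs LASN was lost in 6 of 37 alternatives, each leaving out 1 library (LASI replicate 2, 4 or 5 or LASN replicate 1, 4 or 5), with adjusted p up to 0.0843.

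Markers of other cells in and around the vessels gave the following sums. The pericyte and mural list summed to 356 ± 57.5 TPM in HASI against 497 ± 111 TPM in HASN, and to 605 ± 225 TPM in LASI against 557 ± 115 TPM in LASN. Of its 5 genes 2 were called lower for LASI vs LASN, beside 28.9% of all tested genes, and 0 in the slope fit. Smooth muscle markers summed to 2759 ± 909 TPM in HASI against 3219 ± 2138 TPM in HASN, and to 4870 ± 3247 TPM in LASI against 3284 ± 956 TPM in LASN, with 0 of 8 genes called by limma in either line and 0 at an unadjusted p below 0.05. Leukocyte markers summed to 179 ± 43.5 TPM in HASI against 251 ± 65.0 TPM in HASN, and to 204 ± 80.3 TPM in LASI against 310 ± 84.4 TPM in LASN, with 2 of 4 called lower in LASI, beside 28.9% of all tested genes, and 0 in the slope fit and after rescaling. The part of these cells in the endothelial values was not tested.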

How the data were processed

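RNA was sequenced from the jejunum of 24 chickens. The authors deposited 1 table in TPM, a unit read from the values. The build was galGal6 per the submitters' processing notes; aligner, counting tool and annotation release are not given in the sources used here. Groups come from the labels. After a filter that kept genes of 0.5 TPM or more in 6 libraries or more, log2(TPM + 1) was fitted with limma 3.58.1 (R 4.3.3) over all 24 libraries as 4 group means, with intensity trend, robust moderation and 20 residual degrees of freedom. Benjamini-Hochberg adjustment ran over all 13279 tested genes in each of 7 contrasts. Library measures were compared by exact permutation (924 splits) and correlated by 1e+05 permutations in Python 3.11.15 with scipy 1.17.1. The procedure was tested on simulated data. The endothelial genes and the vessel lists were chosen with earlier results of these data known. All 8 endothelial genes are given, and of each list up to 4 called genes per contrast by adjusted p, each named in at least 1 contrast. ACVRL1, CALCRL, ID1, ID2 and ANGPT1 were named after their values were seen. Alternatives changed scaling, filter, pseudocount, covariates, block and libraries.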

Additional observations from a re-analysis of the deposited data

Results flagged for a closer look

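All results set apart here concern EGFL7, in which 1 library stood above the other 5 of its group by a large part of the group's range. Among 32 sets of 6 libraries examined (8 genes in 4 groups) 3 had such a library, and chance gives about 1 in 20. In HASI, replicate 3 had 13.2 TPM of EGFL7, with the next library at 11.9 TPM and the lowest at 11.4 TPM, a gap of 0.730 of the range. The HASI libraries were close together, so this gap is small in TPM. In LASI, replicate 4 had 27.9 TPM, with the next at 15.5 TPM and the lowest at 12.4 TPM, a gap of 0.797 of the range. In LASN, replicate 6 had 19.8 TPM, with the next at 13.7 TPM and the lowest at 10.9 TPM, a gap of 0.689 of the range. Each gap exceeds Dixon's 95% critical value for 6 samples. LASN replicate 6 had the highest TIE1, TEK, KDR, CDH5 and VWF of its group too, whereas LASI replicate 4 had the lowest ENG and KDR of its group.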

How the results depend on the processing

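Of the 8 endothelial genes, the number called was 1 for HASI vs HASN, 1 for LASI vs LASN, 2 for the mean injection effect and 0 elsewhere. After median-ratio rescaling it was 0, 2 (RAMP2 and EGFL7, higher) and 1. The span slope as covariate gave 1, 0 and 1, and 1 for HASI vs LASI; the W level beside the slope gave the same numbers. Whether libraries of the same replicate number are paired was not tested. Of 36 same-numbered pairs 17 had r over 0.1, and 17 of 72 best matches were the own number. Pairs of number 6 had r from 0.356 to 0.791, and the lowest r of all same-numbered pairs was -0.568. With the number as a block the counts were 1, 1 and 4 (ENG, TIE1, TEK and VWF). Beside them 2.42% of all genes were lower, 2.91% higher and 45.4% lower, in that order. Block and slope together gave 2, 0 and 1, beside 12.7%, 5.17% and 17.0% of all genes lower. For HASI vs LASI they gave 1, beside 1.54% lower. Without HASN replicates 1, 2 and 3 the counts were 6, 1 and 6, with 53.9% and 60.5% of all genes lower for HASI vs HASN and for the mean. That fit leaves out the lowest HASN values of TIE1, TEK, KDR, CDH5 and VWF, which must enlarge their difference. Without HASI replicates 1 and 3 the counts were 0, 1 and 1, beside 0.346% of all genes lower, 1.88% higher and 13.5% lower. Fitting only the groups compared gave 0 for HASI vs HASN, beside 0.354% of all genes lower. Leaving out each library in turn gave 0 to 1, 0 to 1 and 1 to 4, and 0 in every other contrast. Beside these counts 0.730% to 2.12% of all genes were lower, 0.587% to 4.56% higher and 28.2% to 48.3% lower. A filter raised to 1 TPM or dropped, 0.1 as pseudocount, the W level alone and leaving out LASI replicates 4 and 6 left the counts as they were. The W level, alone and with the slope, and leaving out HASI replicates 1 and 3 were chosen after seeing the data. HASN replicates 1, 2 and 3 are told apart only by values of these same data, so leaving them out was not independent of the data either. ENG in HASI vs HASN was not called in 15 of 37 alternatives (adjusted p 0.00252 to 0.492), of them 12 that leave out 1 library, and TIE1 over both lines in 7 of 36 (adjusted p 0.000723 to 0.319). No called value changed sign. The cause was not tested. Depth is unknown, so the counting error of TEK, the lowest gene, cannot be given.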

Other observations

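Of 13 endothelial transcription factors 0 were called by limma for HASI vs HASN, 1 being lower at an unadjusted p below 0.05. For LASI vs LASN 3 were lower, beside 28.9% of all tested genes. They were EPAS1, a hypoxia-responsive factor, at -2.63 (adjusted p = 0.0207), ETS2 at -1.56 (adjusted p = 0.0356) and ETS1 at -0.99 (adjusted p = 0.0457). Of 6 Notch genes 4 were lower in LASI, beside 28.9% of all tested genes, with DLL4, a ligand of sprouting tips and arteries, at -1.70 (adjusted p = 0.0244), HEY2 at -0.94 (adjusted p = 0.0241), JAG2 at -1.13 (adjusted p = 0.0462) and NOTCH1 at -0.60 (adjusted p = 0.0493). In the slope fit EPAS1 stood at -0.68, ETS2 at -0.20, ETS1 at -0.21, DLL4 at -0.40, HEY2 at -0.44, JAG2 at -0.06 and NOTCH1 at -0.10, and none of these was called. HEY1 had a mean injection effect of -0.56 (adjusted p = 0.0152), a call lost in 4 of 36 alternatives, the slope fit (adjusted p = 0.126) among them. Of 24 junction and surface genes 1 was lower in LASI, ADGRF5 at -0.98 (adjusted p = 0.0333), beside 28.9% of all tested genes. Over both lines 10 were lower, beside 38.8% of all tested genes, with 1 lower in the slope fit, beside 15.6%. The 10 included CD93 at -0.96 (adjusted p = 0.0155), MMRN1 at -0.72 (adjusted p = 0.0144) and ADGRL4 at -0.92 (adjusted p = 0.0208), each lost in 4 alternatives (adjusted p up to 0.167, 0.308 and 0.208).

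In the lymphatic list CCBE1, which helps activate VEGFC in mice, averaged 0.894 ± 1.02 TPM in LASI against 4.68 ± 2.02 TPM in LASN. CCBE1 fell by 1.62 on the log2 scale in the LAS line (SE 0.32, adjusted p = 0.00568), and its call was kept in all 37 alternatives, with adjusted p up to 0.0231. In the HAS line CCBE1 averaged 1.15 ± 0.801 TPM in HASI against 1.76 ± 1.04 TPM in HASN. PROX1, the factor that sets lymphatic identity, had a mean injection effect of -0.65 (adjusted p = 0.0458), a call lost in 23 of 36 alternatives (adjusted p up to 0.549). GP5, a part of the thrombocyte receptor for VWF, was lower in HASN than in LASN, with 1.16 ± 0.272 TPM in HASN against 2.24 ± 0.692 TPM in LASN (log2 fold change -0.57, adjusted p = 0.0458), a call lost in 25 of 37 alternatives.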
